A study of Mus musculus with 8 samples.

Results

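Motile cilia genes and choroid plexus genes were examined in hippocampal CA1 tissue from 8 mice. The group holds 32 genes chosen by symbol, 27 of motile cilia and 5 of the choroid plexus (Ttr, Kl, Folr1, Clic6 and Kcnj13), of 37315 genes counted. No measured value entered the rule, but the genes were chosen with earlier results of these data known. All 8 mice express Cas9 and received a stereotaxic injection of an adeno-associated virus (AAV). The virus carried a guide RNA against SIK3 in 4 mice (labelled KO) and a control guide in 4 (labelled Control). Each group had 2 males and 2 females, and each mouse gave 1 poly(A) library, so the control mice share the Cas9 transgene, the injection and the virus. The libraries are Control 1 and 3 (male), Control 2 and 4 (female), KO 1 and 2 (male) and KO 3 and 4 (female), numbered in listing order, which pairs no animals. Not given in the sources used here are the driver of Cas9, the age of the mice, the virus serotype, the cells it reached and the time after injection.

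Ependymal cells line the ventricles of the brain and beat motile cilia that move cerebrospinal fluid. A motile cilium is built on doublet microtubules that carry outer and inner dynein arms, with radial spokes, nexin-dynein links and a central pair of microtubules that together pattern the beat. The forkhead factor FOXJ1 and factors of the RFX family switch on the genes of this machine, and RFX factors bind a sequence called the X-box. The choroid plexus is the epithelium within the ventricles that secretes cerebrospinal fluid, and transthyretin (Ttr) is its most abundant secreted product. CA1 lies close to the lateral ventricle, while its neurons and astrocytes carry a single, non-motile primary cilium.

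Sequencing gave 13561662 to 18619928 counts per library, and 1 count was worth 0.0539 to 0.0737 CPM (the count scaled to library size, with TMM sizes). A chi-square of 3.31 to 15.5 per degree of freedom separated each pair of libraries, so none was a copy of another. Sik3 itself fell under its guide, by a log2 fold change of -0.77 with an SE of 0.09 (quasi-likelihood test of edgeR, adjusted p = 0.0202). It was at 165, 148, 139 and 137 CPM in Control 1 to 4 and 75.3, 88.3, 82.9 and 98.4 CPM in KO 1 to 4, so the groups did not overlap and each library matched its label. With 1 library left out its fold change stayed between -0.85 and -0.70, but it no longer passed without Control 2 (edgeR adjusted p = 0.108), Control 3 (0.0866), KO 2 (0.0865) or KO 3 (0.242). It also did not pass without both Control 4 and KO 2 (0.181). A filter on low counts left 14788 genes to test. Markers of CA1 pyramidal neurons, the labelled region, summed to 372 to 440 CPM in each library. Markers of the neighbouring CA3 and dentate gyrus summed to 673 to 804 CPM, and astrocyte markers to 6910 to 7659 CPM. Whether tissue of CA3 or the dentate gyrus was included was not tested.

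The genes of motile cilia were low, and 3 of the 27 stood well above the rest. Mean levels over the 8 libraries were at least 10 CPM for 3 genes, between 1 and 5 CPM for 13 and under 1 CPM for 11. The outer arm dynein heavy chain Dnah9 was at 58.2 CPM on average, the inner arm dynein tether gene Cfap44 at 19.5 CPM and the outer arm heavy chain Dnah5 at 12.8 CPM. These are long genes, but per kilobase of exon Dnah9 (3.65 CPM per kb) and Cfap44 (2.32 CPM per kb) remained the highest of the 27. Enkur, which encodes a protein inside the doublet microtubules, followed at 1.41 CPM per kb and the radial spoke head gene Rsph4a at 1.01 CPM per kb. At the low end were the central pair genes Spag17 (0.0819 CPM per kb) and Spag16 (0.0948 CPM per kb) and the dynein heavy chain Dnah11 (0.107 CPM per kb). The filter on low counts was passed by 19 of the 27. The other 8 (Tekt2, Tekt4, Tmem212, Dynlrb2, Cfap52, Cfap126, Mlf1 and Pifo) held 21 to 76 counts over all 8 libraries together and were not tested.

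**Figure D1:**
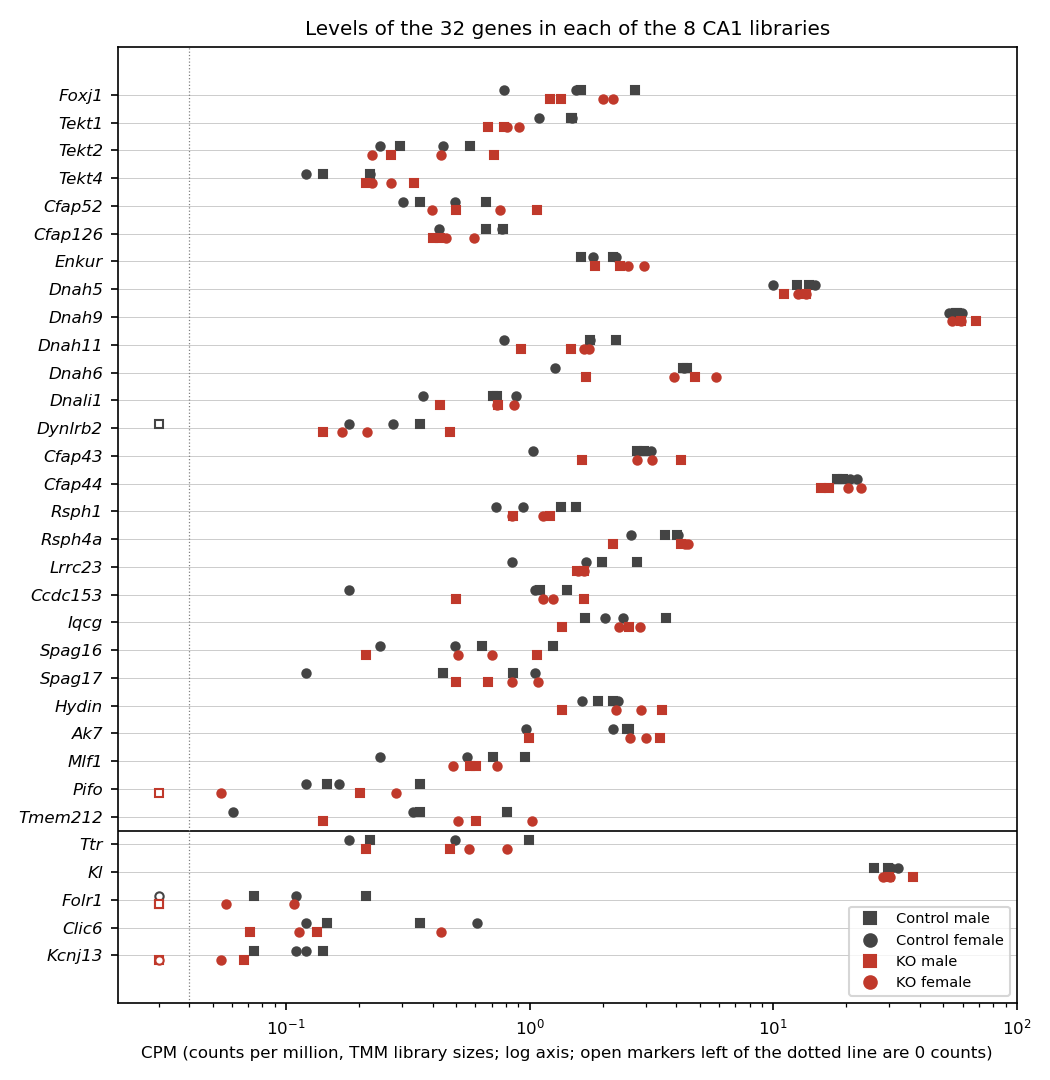
CPM of each of the 32 genes (rows, grouped by role, choroid plexus genes under the line) in each library, on a log axis; grey is Control, red is KO, squares are males, circles are females, and open markers at the left are 0 counts. Dnah9, Kl, Cfap44 and Dnah5 lie above 9 CPM on this axis and the other genes below 7 CPM.

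Of the choroid plexus genes, Kl was abundant while the other 4 were near 0. Ttr had 14, 9, 3 and 3 counts in Control 1 to 4 and 7, 3, 15 and 10 in KO 1 to 4, which is 0.182 to 0.994 CPM. Folr1, the folate receptor of the choroid epithelium, had 3, 2, 1 and 0 counts in controls and 0, 0, 2 and 1 in KO mice. Clic6, of the chloride intracellular channel family, had 5, 11, 2 and 2 counts in controls and 2, 1, 8 and 2 in KO mice. Kcnj13, an inwardly rectifying potassium channel, had 2, 2, 1 and 2 counts in controls and 1, 0, 1 and 0 in KO mice. Together these 4 genes held 115 counts in all 8 libraries, with the groups overlapping for Ttr, Folr1 and Clic6. For Kcnj13 the CPM values did not overlap, but Control 3 and KO 1 each rest on 1 count and differ only by library size. Most counts of all 4 in a library are at or near 3, so no fold change is given for them. Of 31 other choroid plexus genes listed, 17 held under 100 counts in all 8 libraries, among them the choroid factor Otx2 (29 counts), the bicarbonate transporter Slc4a5 (8), Tmem72 (4) and Krt8 (2). At the other end, 5 of the 31 were abundant, led by Enpp2 (20376 counts) and the ion channel gene Trpm3 (14822 counts), with Car12, Slc31a1 and Slc29a4 at 2789 to 5594. The list as a whole summed to 4995 to 7766 counts per library (356 to 437 CPM). Of the 31, 17 passed the filter on low counts, so some lay between these ends. The choroid genes thus ranged from many near 0 to a few abundant ones, Kl among them.

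Kl encodes klotho, the co-receptor of FGF23, which hippocampal neurons also make. It was at 29.7, 30.5, 25.9 and 32.7 CPM in Control 1 to 4 and 37.4, 29.8, 30.2 and 28.2 CPM in KO 1 to 4. Its level was steady, with a highest library 1.44 times the lowest, and the groups overlapped. Its mean was 29.7 ± 2.81 CPM in the controls and 31.4 ± 4.07 CPM with the SIK3 guide (± SD, n = 4 per group), and its log2 fold change of 0.08 ± 0.10 (SE) did not pass (edgeR, adjusted p = 0.9999). Per kilobase of exon, Kl was at 3.27 CPM per kb and Ttr at 0.417 CPM per kb.

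The first comparison asked whether the SIK3 guide changed these genes. Among the 19 tested motile cilia genes, 0 passed the adjusted p in either direction, and Kl, the 1 tested choroid gene, did not pass (edgeR; of all tested genes 0.0135% passed, 0.00676% higher and 0.00676% lower). Of the 19, 12 had positive and 7 negative log2 fold changes, with a median of 0.07 against 0.0036 over all tested genes. With a library left out, the filter passed a different number of genes. The median was -0.13 over 22 genes without Control 4, -0.04 over 20 without KO 3 and 0.24 over 22 without KO 2. At an unadjusted p under 0.05 there was 1 of the 19, against 2.81% of all genes, and it was Tekt1. DESeq2 and limma voom likewise called 0 of the 19.

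Tekt1 (ENSMUSG00000020799, chromosome 11, 72344722 to 72362442 on GRCm38, minus strand) encodes a tektin, a filament protein inside the doublet microtubules. It was at 1.49, 1.49, 1.47 and 1.09 CPM in Control 1 to 4 and 0.672, 0.784, 0.809 and 0.906 CPM in KO 1 to 4. All 4 KO libraries were below every control, and it was the 1 gene of the 19 without overlap. Of all tested genes, 0.811% were lower without overlap and 0.933% higher. In counts it was 21, 27, 20 and 18 against 10, 11, 15 and 16. The log2 fold change was -0.79 ± 0.24 (SE; edgeR, unadjusted p = 0.0063, adjusted p = 0.9999), which did not pass over all genes. It was -1.02 in males and -0.59 in females. The tektin genes Tekt2 and Tekt4 were too low to test. Tekt2 was at 0.387 ± 0.147 CPM in the controls and 0.410 ± 0.220 CPM in KO mice. Tekt4 was at 0.176 ± 0.0522 against 0.262 ± 0.0552 CPM (all ± SD, n = 4 per group).

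The remaining 18 tested motile cilia genes had overlapping groups, log2 fold changes from -0.14 to 0.34 and unadjusted p of at least 0.161. Foxj1, the regulator of the program, was at 1.66 ± 0.786 CPM in the controls and 1.69 ± 0.486 CPM with the SIK3 guide (± SD, n = 4 per group), with a log2 fold change of 0.07 ± 0.34. Among the dynein arm genes, Dnah9 had a log2 fold change of 0.10 ± 0.07, Dnah5 of -0.0086 ± 0.13, Dnah6 of 0.21 ± 0.38 and Dnali1, an inner arm light intermediate chain, of 0.06 ± 0.34 (all ± SE). The radial spoke genes Rsph1 and Rsph4a were at -0.12 ± 0.26 and 0.09 ± 0.23, and the central pair genes Hydin and Spag17 at 0.31 ± 0.27 and 0.33 ± 0.46. The smallest errors belonged to the abundant Dnah9, Cfap44 and Dnah5, while those of genes near 1 CPM were several times larger. Iqcg, of the nexin-dynein link, shares 48.1% of its exon bases with Lrch3 on the opposite strand, and Kcnj13 shares 49.1% with Gigyf2, so their counts are uncertain. The strand setting of the counting was not given in the sources used here.

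**Figure D2:**
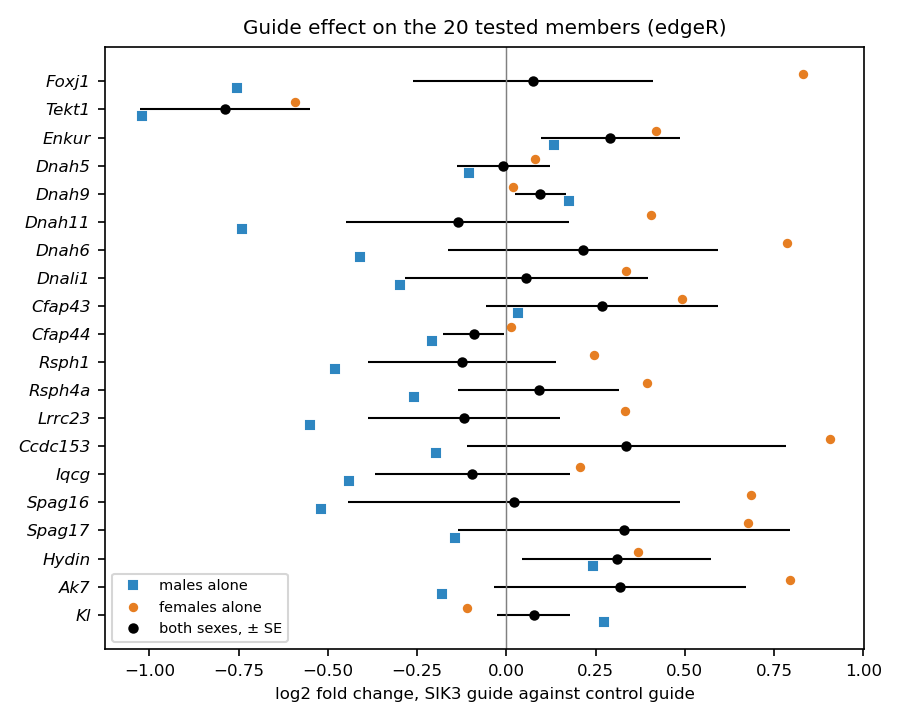
Log2 fold change of KO against Control for the 20 tested genes, with black points and bars for the estimate ± SE over both sexes, blue squares for males and orange circles for females (2 mice against 2 each). Tekt1 at -0.79 is the one gene below 0 in both sexes.

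The motile cilia genes varied widely between mice of the same group. In both groups 1 mouse was low for most of them, the female Control 4 and the male KO 2. Of the 19 tested genes, 16 were lower in Control 4 than in each other control, and 16 were lower in KO 2 than in each other KO library. These counts within groups were not made over all tested genes. Control 4 was among the 2 lowest of all 8 libraries for 16 of the 19, against 3753 of 14788 tested genes. KO 2 was among the 2 lowest for 15 of the 19, against 3455 of 14788. For 12 of the 19 the 2 lowest of all 8 libraries were exactly Control 4 and KO 2, against 2.94% of all tested genes. These 12 were Foxj1, Dnah5, Dnah6, Dnah11, Dnali1, Cfap43, Rsph4a, Lrrc23, Ccdc153, Spag16, Hydin and Ak7. The pair of libraries was picked out after the values were seen, so the count is a description. Dissection and library batches, and whether these 2 libraries shared one, were not given in the sources used here. In bulk tissue, fewer ciliated cells and less RNA per ciliated cell cannot be told apart.

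**Figure D3:**
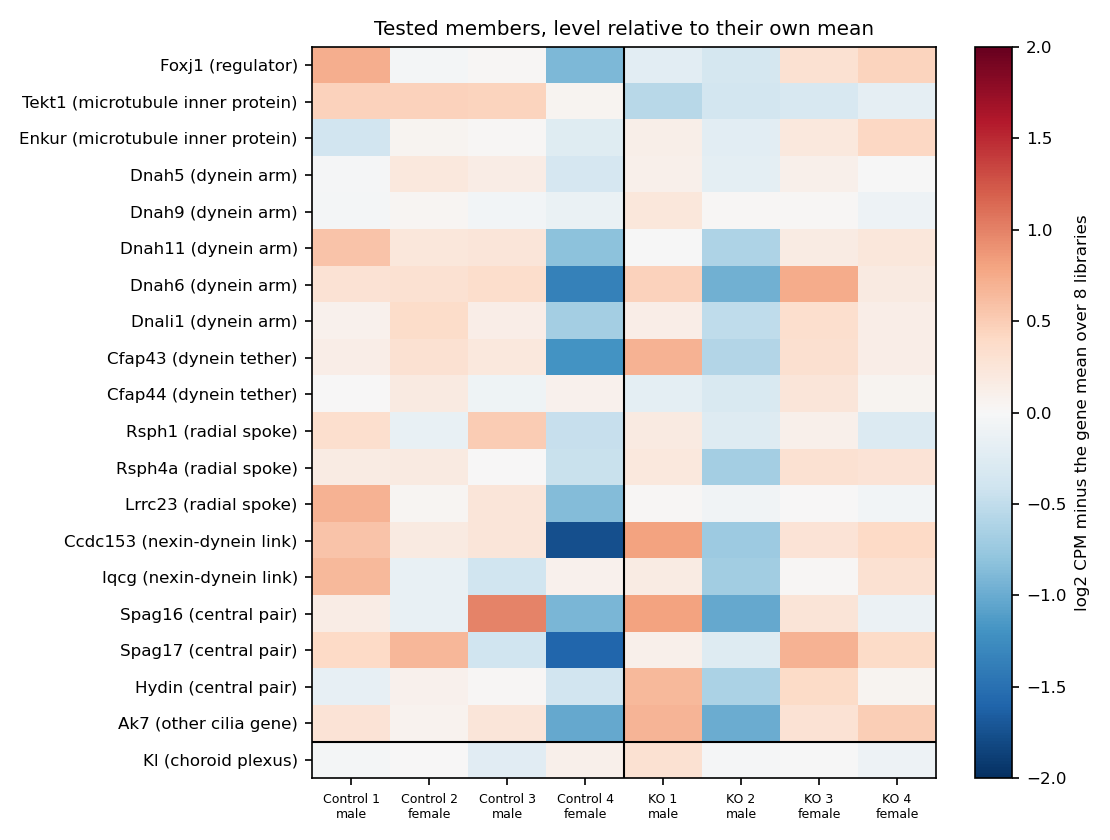
Log2 CPM of the 20 tested genes (rows, with their role) in the 8 libraries (columns, Control left of the line and KO right), minus each gene's mean over the 8; blue is below and red above the mean. The columns of Control 4 and KO 2 are blue for most motile cilia genes, and the rows of Dnah9, Cfap44 and Kl are pale throughout.

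Ccdc153 (ENSMUSG00000070306, chromosome 9, 44240676 to 44247306, plus strand), a component of the nexin-dynein regulatory complex, had the widest range of the tested genes. It was at 1.42, 1.05, 1.11 and 0.182 CPM in Control 1 to 4 and 1.68, 0.499, 1.13 and 1.25 CPM in KO 1 to 4, a highest level 9.24 times the lowest. Control 4 rests on 3 counts and KO 2 on 7, against 15 to 25 in the other libraries. The inner arm heavy chain Dnah6 (chromosome 6, 73017606 to 73221651) was at 4.26, 4.30, 4.42 and 1.27 CPM in the controls and 4.77, 1.71, 5.83 and 3.91 CPM in KO mice. Both low libraries lay below every other library by a wide gap, with 21 and 24 counts against 60 to 108. Ak7, an adenylate kinase of cilia, was at 2.56, 2.21, 2.50 and 0.970 CPM in the controls and 3.43, 0.998, 2.59 and 3.0 CPM in KO mice. Cfap43, a dynein tether, was at 2.77, 3.15, 2.95 and 1.03 CPM in the controls and 4.17, 1.64, 3.18 and 2.77 CPM in KO mice. Of the untested genes, Tmem212, a transmembrane protein of ependymal cells, had 1 count in Control 4 and 2 in KO 2, against 5 to 19 in the other libraries.

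The central pair genes Spag16 and Spag17 were low in the same libraries but rest on few counts. Spag16 was at 0.639, 0.497, 1.25 and 0.243 CPM in Control 1 to 4 and 1.08, 0.214, 0.701 and 0.509 CPM in KO 1 to 4. Spag17 was at 0.852, 1.05, 0.442 and 0.121 CPM in Control 1 to 4 and 0.672, 0.499, 1.08 and 0.849 CPM in KO 1 to 4, so that Control 3 was also below KO 2. Enkur varied less, at 1.63, 2.26, 2.21 and 1.82 CPM in Control 1 to 4 and 2.35, 1.85, 2.54 and 2.94 CPM in KO 1 to 4, and its lowest library was Control 1. Among the untested genes, Mlf1 ran from 0.243 CPM in Control 4 to 0.958 CPM in Control 3, and Cfap52 from 0.303 CPM in Control 4 to 1.08 CPM in KO 1. Pifo had 0 counts in KO 2 and the dynein light chain gene Dynlrb2 had 0 in Control 3. Cfap126 was at 0.403 to 0.781 CPM, with the groups overlapping and KO 1 lowest.

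Dnah9 did not share this spread. It was at 56.7, 59.4, 56.1 and 52.7 CPM in Control 1 to 4 and 68.0, 59.2, 59.3 and 54.3 CPM in KO 1 to 4, a highest level 1.29 times the lowest, and KO 2 lay amid the other libraries. Cfap44 was at 19.4, 22.1, 18.3 and 20.6 CPM in the controls and 16.9, 15.7, 22.9 and 20.2 CPM in KO mice, with KO 2 lowest but Control 4 among the higher libraries. Dnah5 was lowest in Control 4 and KO 2, with the other libraries at 12.5 to 14.8 CPM, but its highest level was only 1.48 times its lowest. With these 3 abundant genes set aside, the other 24 motile cilia genes summed to 18.6 CPM in Control 4 and 20.8 CPM in KO 2, against 34.5 to 39.5 CPM in the other 6 libraries. All 27 together summed to 102 and 107 CPM in those libraries and 123 to 138 CPM in the others. The 3 genes were set aside after their values were seen.

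The spread within groups is therefore wide for this set. The biological coefficient of variation fitted by edgeR had a median of 0.214 over the 19 genes, against 0.0916 over all tested genes, and the median ratio of the highest to the lowest library was 2.67 against 1.35. Low counts widen such ratios, and most of these genes are low; the 2 sets were not matched on level. Relative to the mean of the controls, the mean log2 CPM of the 19 was 0.29, 0.18, 0.18 and -0.65 in Control 1 to 4 and 0.26, -0.47, 0.26 and 0.17 in KO 1 to 4. Without Control 4 and KO 2 the median log2 fold change was 0.02 over the 22 genes then tested, and 0 passed (edgeR).

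Lists of related genes were set beside this pattern. The 68 tested genes of the other motile cilia lists (regulators, dynein arms and their assembly, nexin-dynein links, radial spokes, central pair and microtubule inner proteins) had a list level of -0.12 in Control 4 and -0.08 in KO 2, against -0.0027 to 0.06 in the other libraries. Both libraries were thus also lowest there, by a smaller margin. Of those 68, 7 (10.3%) had exactly Control 4 and KO 2 as their lowest libraries, against 2.94% of all tested genes. Among the 7 were the inner arm heavy chains Dnah10 and Dnah12 and the multiciliation factor Trp73. The 13 other tested ependymal genes were at -0.22 and -0.27 in these libraries, with Control 1 also low at -0.15. By contrast the 26 primary cilium genes, which include intraflagellar transport and Bardet-Biedl genes, ran from -0.02 to 0.02 in all 8 libraries. They are more abundant, summing to 1154 to 1216 CPM per library, against 102 to 138 CPM for the 27 motile cilia genes. The lists were not matched on level. Of these 26, 0 had that pair as their lowest libraries. The pair was lowest for 3 of the 13 other ependymal genes, 4 of 17 other choroid plexus genes and 2 of 11 meningeal fibroblast markers. It was also lowest for 1 of 8 septum, striatum and thalamus markers. For astrocyte, CA1, and CA3 and dentate markers it was 0 of 10, 0 of 6 and 0 of 11. A few genes of lists outside cilia thus also had this pair lowest. By list level, KO 3 was below Control 4 for other choroid plexus genes (-0.08 against -0.05). It was also below KO 2 for meningeal fibroblast markers (-0.13 against -0.08).

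**Figure D4:**
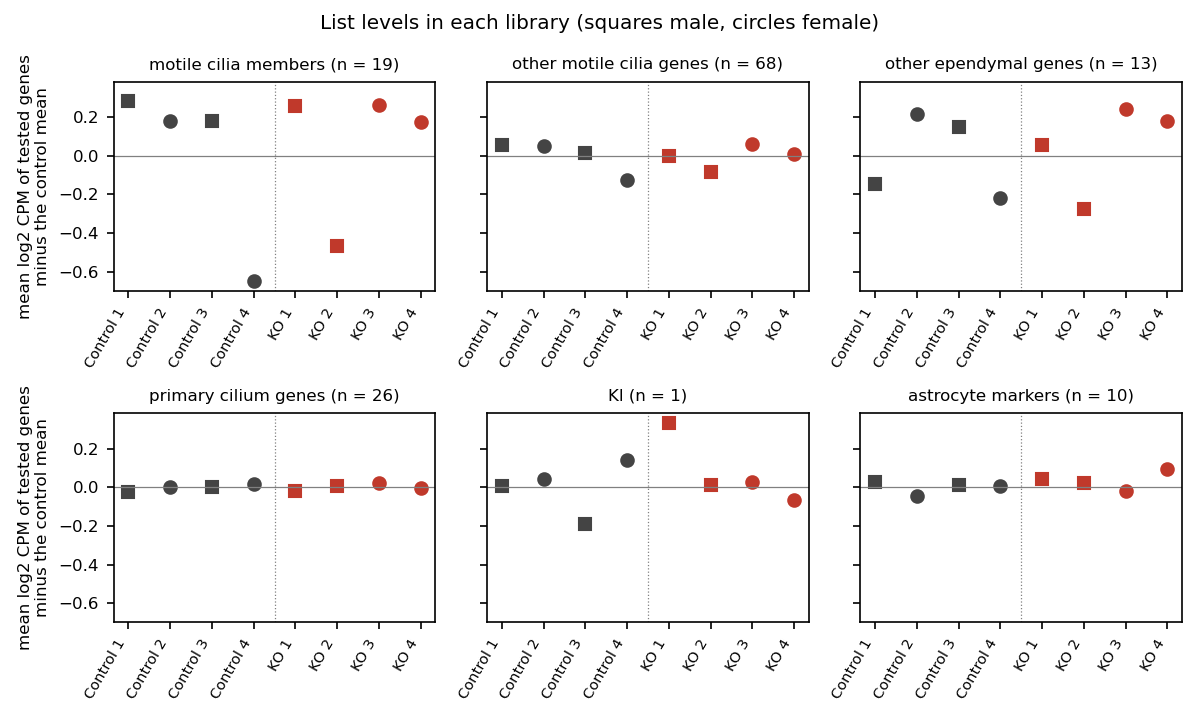
Mean log2 CPM of the tested genes of 6 lists in each library, minus the control mean (vertical axis); grey is Control, red is KO, squares are males and circles females. The motile cilia genes are at -0.65 in Control 4 and -0.47 in KO 2, while primary cilium genes and astrocyte markers stay near 0. The lists were not matched on level.

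Other tissue markers were measured in the same libraries. Meningeal fibroblast markers were at -0.24 in Control 4 and -0.08 in KO 2, other choroid plexus genes at -0.05 and -0.31, and markers of septum, striatum and thalamus at -0.17 and -0.12. Over the other 6 libraries these 3 lists ran from -0.13 to 0.49, -0.08 to 0.26 and -0.01 to 0.15. The 4 choroid genes beside Kl summed to 7 counts in Control 4 and 4 in KO 2, and to 7 to 26 in the other libraries, with Control 3 also at 7. CA1 pyramidal markers were at -0.05 and 0.13, and astrocyte markers at 0.01 and 0.03. Depth did not single out these libraries, with 16743701 and 13969161 counts, nor did the share of mitochondrially encoded genes, at 9.18% and 8.98% of a range from 8.53% to 9.84%. Whether the cut of the tissue, or any of these markers or library measures, had a part in the pattern was not tested.

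The second comparison asked whether the guide effect differed between the sexes. The interaction passed for 0 of the 20 tested genes (edgeR; 0% of all tested genes), and 1 of the 19 motile cilia genes had an unadjusted p under 0.05, against 5.42% of all tested genes, a share near this background. That gene was Foxj1 (ENSMUSG00000034227, chromosome 11, 116330704 to 116335399, minus strand). It was at 2.70 and 1.62 CPM in control males and 1.34 and 1.21 CPM in KO males, and at 1.55 and 0.788 CPM in control females and 2.00 and 2.21 CPM in KO females. The KO libraries were thus lower in males and higher in females, with 2 mice in each sex and group. The guide effect on it (log2) was -0.76 for males and 0.83 for females, a difference of 1.59 ± 0.52 (SE; edgeR, unadjusted p = 0.0106, adjusted p = 0.765), which did not pass. Of the 19 genes, 15 had negative estimates in males and 18 positive estimates in females. Their medians were -0.26 in males and 0.39 in females, against -0.0041 and 0.0050 over all tested genes. The signs within each sex were not counted over all tested genes. The low KO 2 is 1 of 2 KO males and the low Control 4 is 1 of 2 control females, so these directions and the 2 low libraries cannot be told apart.

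Other genes of the ciliary machine were counted from lists. Over the 68 tested genes of the other motile cilia lists, 0 passed (edgeR adjusted p), 34 had positive and 34 negative log2 fold changes, and the median was 0.0019. At an unadjusted p under 0.05, 1 was higher (background 1.79%) and 1 was lower (background 1.03%). The higher gene was Cfap61, a radial spoke component, with a log2 fold change of 0.55, and the lower one was Efcab1, with -0.25. Medians ran from -0.11 for the 10 microtubule inner proteins to 0.16 for the 9 central pair genes. The 26 primary cilium genes had a median of -0.0002 and 0 at an unadjusted p under 0.05 (0 passed in edgeR). Of 17 tested genes among the other choroid plexus genes, 0 passed, and 1 had an unadjusted p under 0.05, the BMP antagonist Sostdc1, at -0.61. Rfx3, one of the RFX factors of ciliated cells, was abundant at 306 CPM and had a log2 fold change of -0.06, while Rfx2 was at 2.13 CPM and 0.08.

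The sequence before the starts of these genes was searched for the X-box half-site, 5′-GTTGCC-3′ on either strand. RefSeq promoter windows (GRCm38.p6, 250 bases before to 50 after a start) were matched for 26 of the 32 genes, 24 of them motile cilia genes. A gene counted as having a half-site when any of its windows did. This held for 13 of these 24 (54.2%), against 14.1% of 27025 genes with a window. Counted by window, a half-site was present in 14 of 30 (46.7%), against 12.5% of 32851. It was present in 34 of 73 genes of the other motile cilia lists (46.6%) and in 10 of 23 primary cilium genes (43.5%). The 2 choroid genes with a window, Kl and Kcnj13, had 0 matches. A paired X-box (GTTNCC and GGNAAC, 0 to 3 bases apart), which can overlap a half-site, was found for 1 of the 24, Pifo, against 0.936% of all genes. The forkhead word TGTTTAC was found on either strand for 3 of the 24 (12.5%; 4.05% of all genes), which were Cfap43, Ak7 and Mlf1. Among tested genes with a window, the half-site was present in 4 of the 10 that were lowest in Control 4 and KO 2 and in 4 of the other 6. Whether these sites have a part in the spread between libraries was not tested.

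The 200 bases before the start are shown for 7 genes. Tekt1 and Pifo each have 2 windows, of which the 1 with a match is shown and the other has 0 matches. Tekt1 is the gene with groups that did not overlap, and Ccdc153, Spag16 and Lrrc23 have a half-site and were low in Control 4 and KO 2. Enkur has a half-site and Pifo a paired X-box near the start, and Dnah9 is the abundant gene with no match. Dnah5, Dnah6, Dnah11, Dnali1, Cfap43 and Ak7 were lowest in Control 4 and KO 2 with no half-site in their window, and are not shown. Each is written 5′ to 3′ towards the start of transcription, with half-sites, and in Pifo the paired X-box, in capitals.
Tekt1 (chr11:72361883-72362082, minus strand): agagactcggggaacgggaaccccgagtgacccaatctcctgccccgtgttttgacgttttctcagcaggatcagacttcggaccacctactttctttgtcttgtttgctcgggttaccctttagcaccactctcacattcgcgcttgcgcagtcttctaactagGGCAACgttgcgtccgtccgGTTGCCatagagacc
Ccdc153 (chr9:44240477-44240676, plus strand): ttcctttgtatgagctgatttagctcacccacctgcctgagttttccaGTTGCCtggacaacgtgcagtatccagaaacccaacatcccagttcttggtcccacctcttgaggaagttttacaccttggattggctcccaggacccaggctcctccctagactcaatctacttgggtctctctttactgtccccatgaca
Spag16 (chr1:69826770-69826969, plus strand): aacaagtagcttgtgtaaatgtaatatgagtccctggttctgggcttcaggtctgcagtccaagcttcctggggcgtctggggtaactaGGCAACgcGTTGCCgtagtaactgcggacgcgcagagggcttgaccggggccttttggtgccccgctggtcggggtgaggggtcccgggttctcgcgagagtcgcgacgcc
Lrrc23 (chr6:124779728-124779927, minus strand): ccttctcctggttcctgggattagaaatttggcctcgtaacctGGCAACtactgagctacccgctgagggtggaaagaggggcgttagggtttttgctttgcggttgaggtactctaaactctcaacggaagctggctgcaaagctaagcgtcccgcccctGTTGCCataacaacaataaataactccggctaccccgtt
Enkur (chr2:21205366-21205565, minus strand): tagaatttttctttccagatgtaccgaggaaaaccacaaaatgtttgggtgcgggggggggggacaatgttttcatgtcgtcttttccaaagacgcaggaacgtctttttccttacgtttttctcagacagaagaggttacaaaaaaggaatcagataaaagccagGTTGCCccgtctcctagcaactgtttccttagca
Pifo (chr3:106001498-106001697, minus strand): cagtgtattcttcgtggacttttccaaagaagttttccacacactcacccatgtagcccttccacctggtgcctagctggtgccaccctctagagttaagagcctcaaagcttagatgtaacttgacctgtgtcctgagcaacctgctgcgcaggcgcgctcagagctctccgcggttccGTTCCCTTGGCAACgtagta
Dnah9 (chr11:66168552-66168751, minus strand): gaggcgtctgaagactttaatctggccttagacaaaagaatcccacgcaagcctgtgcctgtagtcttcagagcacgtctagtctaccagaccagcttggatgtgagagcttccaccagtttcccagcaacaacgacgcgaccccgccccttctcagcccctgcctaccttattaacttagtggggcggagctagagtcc
Counted back from the start, the first base of the match lies 35 and 15 bases before it in Tekt1, 152 in Ccdc153, 111 and 103 in Spag16, 157 and 39 in Lrrc23, and 34 in Enkur. In Spag16 the half-sites lie on opposite strands, 2 bases apart. Cfap44, whose level was steady, also had half-sites in its window. These are matches of letters and were not measured as bound sites.

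**Figure D5:**
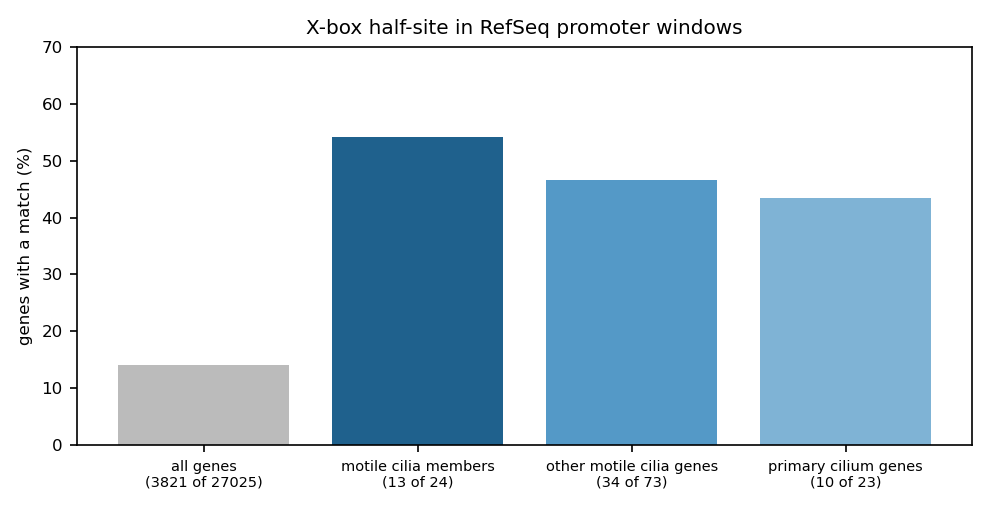
Share of genes (percent, vertical axis from 0) whose RefSeq promoter window holds an X-box half-site on either strand, for all genes and for 3 groups, with the counts under each bar. The share is 54.2% for the motile cilia genes and 14.1% for all genes.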

How the data were processed

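RNA from CA1 of 8 mice was made into libraries with a stranded mRNA kit, per the labels' protocols. What the authors deposited are raw counts of reads for 37315 Ensembl identifiers, in a file for each mouse. The tools Trimmomatic 0.33, TopHat2 2.1.1 and HTSeq 2.0.1 and the build mm10 are named, without their roles, per the submitters' processing notes. Not given in the sources used here are the strand setting and the annotation release. Symbols were found for 35449 identifiers, and positions and exon lengths came from GENCODE M21 (GRCm38). A table of the whole series was not used.

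The test was the quasi-likelihood F test of edgeR 4.0.16 (R 4.3.3) after TMM scaling, with sex as an additive term and 5 residual degrees of freedom. Low counts were removed by filterByExpr (count 10, total 15). P-values were adjusted by Benjamini-Hochberg over all tested genes. The SE is the log2 fold change divided by the square root of F. The interaction of sex and guide was fitted with 4 residual degrees of freedom. CPM used TMM library sizes, and log2 CPM a prior count of 2. Groups followed the genotype label. All 32 genes, Sik3, and at most 3 genes of each other list with the smallest p were to be named; genes of those lists picked for their levels or library pattern (Otx2, Slc4a5, Tmem72, Krt8, Enpp2, Trpm3, Car12, Slc31a1, Slc29a4, Dnah10, Dnah12, Trp73, Rfx2 and Rfx3) were named after their values were seen. Members and lists were chosen with earlier results of these data known. Alternatives were RLE and upper-quartile scaling, no filter, a mean CPM of at least 1, DESeq2 1.42.0, limma 3.58.1 voom, no sex term, the GC slope as a covariate and leaving out each library. The scripts were tested on simulated data. Leaving out Control 4 and KO 2 together was an alternative chosen after seeing the data.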

Additional observations from a re-analysis of the deposited data

Results flagged for a closer look

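A library far from the other 3 of its group was looked for in each of 66 group values, and 5 stood out. Chance flags about 1 in 20 such groups. The mean log2 CPM of the 19 tested motile cilia genes, with the control mean at 0, was -0.65 in Control 4, with the next control at 0.18. It was -0.47 in KO 2, with the next KO library at 0.17. Dnah6 was at 1.27 CPM in Control 4, with the next control at 4.26 CPM. Rsph4a was at 2.21 CPM in KO 2, with the next KO library at 4.17 CPM. Tekt1 was at 1.09 CPM in Control 4, with the next control at 1.47 CPM, which still left Control 4 above every KO library.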

How the results depend on the processing

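Under all 17 alternatives 0 motile cilia genes and 0 choroid genes passed, and the smallest adjusted p of any of the 20 genes was 0.416, for Tekt1 without KO 1. Tekt1 kept its direction in every alternative, with log2 fold changes from -0.93 to -0.71 and unadjusted p from 0.00401 to 0.0451, the last by DESeq2. The median of the motile cilia genes tested under each setting ran from -0.13 (without Control 4) to 0.24 (without KO 2) when 1 library was left out and from 0.02 to 0.09 otherwise. The choroid median, which is that of Kl alone, ran from -0.03 to 0.13 when 1 library was left out; with no filter it was -0.69, over 5 genes of which 4 are near 0 counts. The count of called genes over the whole table was 2, and it was 84 with no filter, 0 without both Control 4 and KO 2, and 0 to 2 when 1 library was left out (0 without Control 2, Control 3, KO 2 or KO 3, and 1 without Control 4). The interaction count was 0, and it was 100 with no filter, 2 by DESeq2, and 0 to 1 when 1 library was left out (1 without KO 4), with 0 of the genes examined here among them. Of the 20 tested genes, 14 changed sign in at least 1 alternative. These were not only genes close to 0, since Spag17 (0.33) and Ccdc153 (0.34) were among them. With limma voom Dnah5 was at 0.0053 and Spag16 at -0.0761; with no sex term Spag16 was at -0.012; with the GC slope Foxj1 was at -0.10 and Dnah5 at 0.0064. Without both Control 4 and KO 2, Foxj1 was at -0.077, Dnali1 at -0.066, Spag17 at -0.053 and Iqcg at 0.14. The cause of these sign changes was not tested. When 1 library was left out the ranges that crossed 0 were -0.0365 to 0.67 for Ccdc153, -0.0156 to 0.54 for Cfap43, -0.43 to 0.0699 for Dnah11, -0.13 to 0.0939 for Dnah5, -0.15 to 0.52 for Dnah6, -0.22 to 0.25 for Dnali1, -0.23 to 0.41 for Foxj1, -0.23 to 0.20 for Iqcg, -0.0306 to 0.13 for Kl, -0.35 to 0.0748 for Lrrc23, -0.29 to 0.0296 for Rsph1, -0.0926 to 0.29 for Rsph4a, -0.25 to 0.43 for Spag16 and -0.13 to 0.79 for Spag17. No paired analysis was possible because the labels give no replicate numbers shared between the groups. With 1 count worth 0.0539 to 0.0737 CPM, most of these genes rest on few counts, and the SE of their log2 fold changes ran from 0.07 (Dnah9) to 0.46 (Spag17). P-values set the difference between the groups against the fitted spread between these mice.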
